A study of Mus musculus with 8 samples.

Results

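The genes described here encode β-catenin and the proteins that help it activate transcription: Ctnnb1, Ep300, Crebbp, Bcl9, Bcl9l, Pygo1, Pygo2, Smarca4, Carm1 and Kat2b. They were chosen by name, though with earlier results of these data known, and all 10 were found among the 24304 genes measured. They were read from 25 of the 62976 array spots, with 1 to 4 spots per gene. E12.5 lungs of C57bl/6J mouse embryos were grown as explants on filters. At 9 h, 3 arrays came from explants given IQ1 at 10 µM and 3 from explants given vehicle, called control. At 24 h there was 1 IQ1 array and 1 control array, both from pooled lungs. By the labels the vehicle was PBS, while the methods give DMSO as the solvent of IQ1 and either liquid as the vehicle. If the 2 groups received different solvents, solvent and IQ1 cannot be told apart. No altered allele is named for these explants, although the labels of the IQ1 samples also carry the words global FGFR2b inhibition. The methods took lungs for culture from transgenic or from C57BL/6 wild-type embryos, without stating which were used here.

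β-catenin serves both as a link between cadherins and the actin cytoskeleton at adherens junctions and as a transcriptional coactivator in canonical WNT signaling. In the nucleus it binds TCF/LEF factors and recruits BCL9 and Pygopus proteins through its N-terminal part, and acetyltransferases and chromatin remodelers through its C-terminal part. EP300 and CBP, the product of Crebbp, are paralogous acetyltransferases that compete for β-catenin, and IQ1 is a small molecule used to lower the use of EP300 by β-catenin. IQ1 acts on proteins. Whether the transcripts of the machinery itself differ in IQ1 explants is the question asked here.

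None of the 10 transcripts rose or fell detectably with IQ1 at 9 h. All values are log2 intensities, quantile-normalized by the authors, and all differences are IQ1 minus control. In limma's moderated test the adjusted p was 0.730 to 0.941 for the 10 genes with all 6 arrays (n = 3 each), and 0.635 to 0.987 without control replicate 2 (n = 3 and n = 2). Among all genes, the adjusted threshold of 0.05 was passed by 0% with 6 arrays and by 0.0123% with 5 arrays. None of the 10 genes had an unadjusted p under 0.05 in either fit. Among all genes, 2.02% had one with 6 arrays (1.13% higher and 0.889% lower) and 8.38% with 5 arrays (4.24% higher and 4.14% lower). The difference was above 0 for 6 of the 10 genes with 6 arrays, against 57.2% of all genes. Nothing in the labels says whether the 9 h replicates are separate lungs or cultures, so these p-values measure the spread between the arrays only.

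One array was unlike the rest, that of control replicate 2 at 9 h. Its Pearson correlation with them across all spots was 0.583 to 0.602, whereas the other 7 correlated at 0.953 to 0.982. It lay over 1 on the log2 scale from the mean of the other 2 controls at 9 h for 5 of the 10 genes and for 68.5% of all genes. The comparison is therefore given with all 6 arrays and with 5 arrays, without control replicate 2. The tissue was a homogenate of whole lung, in which fewer cells of a type and less RNA per cell cannot be told apart. Markers of the main lung tissues were present, since mesenchymal markers averaged 10.34 to 11.47 and epithelial markers 9.11 to 10.11 on the 8 arrays. These averages hide differences in both directions. In the 5-array fit 4 of 10 epithelial and 5 of 9 mesenchymal markers had a difference above 0. At an unadjusted p under 0.05, 2 epithelial markers were higher and 1 lower, and 1 mesenchymal marker was lower. With 6 arrays this was so of 1 epithelial marker, which was higher. None passed the adjusted threshold. Endothelial markers averaged 5.73 to 6.02 on the 3 IQ1 arrays and 6.63 to 7.78 on the 3 control arrays at 9 h, and 5.68 on the IQ1 array and 7.81 on the control array at 24 h. Their difference was below 0 for 10 of 10 in the 5-array fit, 8 of them with an unadjusted p under 0.05 (5 with 6 arrays). None passed the adjusted threshold. In the same fit 6 of 7 mesothelial, 6 of 6 smooth muscle, 5 of 7 macrophage and 5 of 6 erythroid markers had a difference above 0, against 51.6% of all genes. Again none passed the adjusted threshold. Of these, 3 mesothelial, 3 smooth muscle, 3 macrophage and 0 erythroid markers had an unadjusted p under 0.05 (2, 2, 2 and 0 with 6 arrays). The erythroid median was only 0.06. The part of these cell types in the values below was not tested.

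The plot of levels by array shows how close the groups lay.

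**Figure D1:**
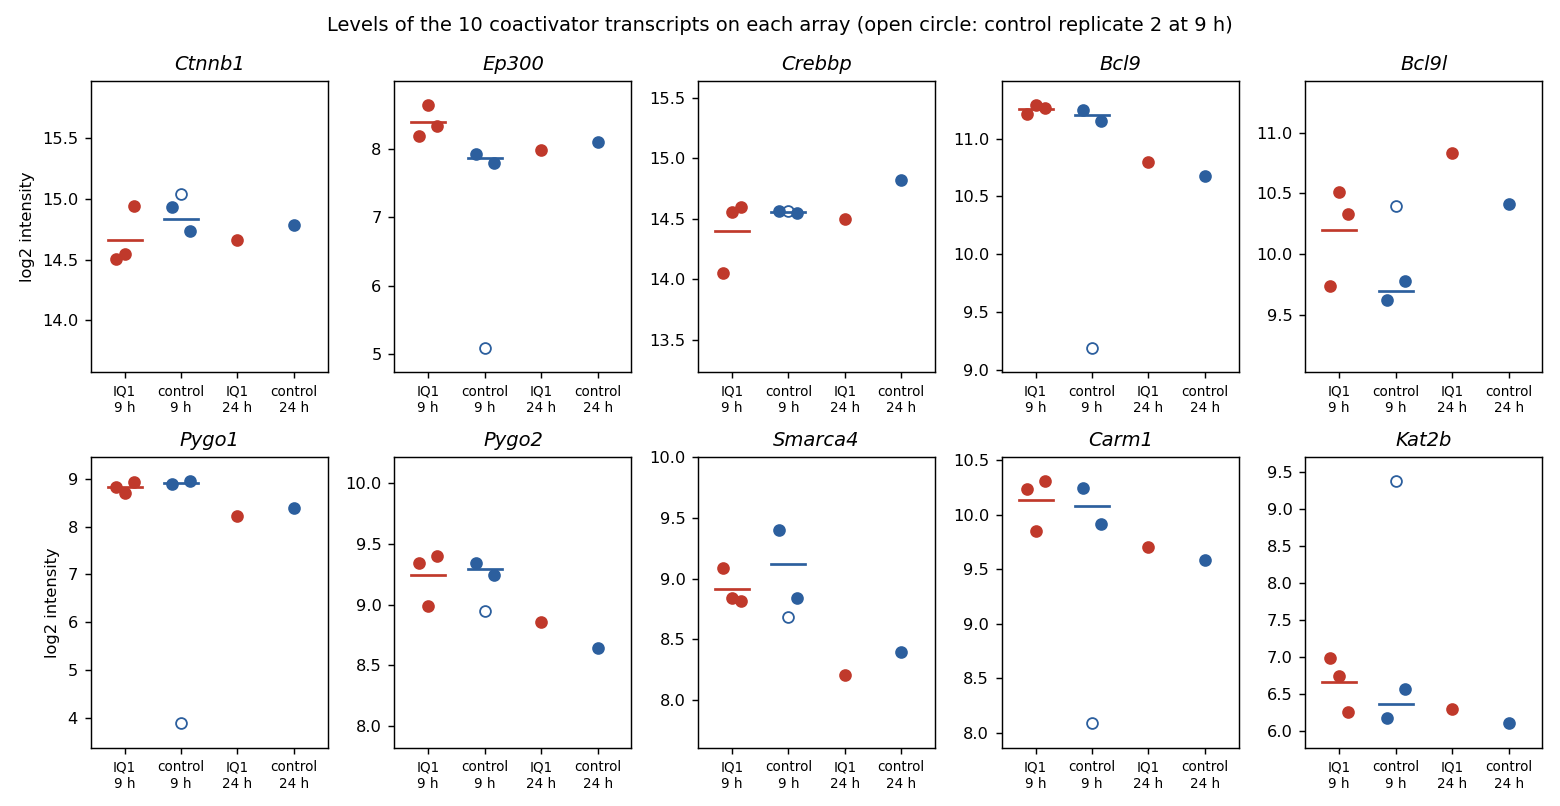
Log2 intensity of the brightest spot of each of the 10 genes on the 8 arrays, with IQ1 in red, control in blue, lines at the 9 h means (without control replicate 2) and control replicate 2 as an open circle. Of the 10 genes, Ep300 is the one whose 3 IQ1 values at 9 h (8.18 to 8.63) lie above all control values, and the open circle falls far from the other controls for Ep300, Bcl9, Pygo1, Carm1 and Kat2b.

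Ctnnb1, which encodes β-catenin itself, had levels of 14.51, 14.54 and 14.94 on the IQ1 arrays at 9 h and 14.93, 15.04 and 14.74 on the control arrays (replicates 1, 2 and 3). At 24 h the level was 14.66 with IQ1 and 14.78 in the control. The highest IQ1 value lay within the control range and the groups overlapped. The difference at 9 h was −0.24 (SE 0.35, adjusted p = 0.766) with 6 arrays and −0.17 (SE 0.24, adjusted p = 0.920) with 5. The 95% interval of the 5-array difference ran from −0.76 to 0.42. Ctnnb1 was among the genes on which control replicate 2 deviated little, by 0.21.

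Ep300 had levels of 8.18, 8.63 and 8.33 with IQ1 and 7.92, 5.09 and 7.79 in controls at 9 h, and it was the only one of the 10 genes whose groups did not overlap. All 3 IQ1 values lay above all 3 control values, a pattern found in 8.33% of all genes with 6 arrays and in 13.1% with 5. None of the 10 genes had all IQ1 values below all control values, against 5.25% of all genes with 6 arrays and 13.1% with 5. At 24 h the order was the other way, with 7.99 in the IQ1 array and 8.09 in the control array. The 9 h difference was 1.45 (SE 0.82, adjusted p = 0.730) with 6 arrays and 0.52 (SE 0.24, adjusted p = 0.635) with 5 arrays, without the low value of control replicate 2. The 95% interval of the 5-array difference ran from −0.05 to 1.10.

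Crebbp encodes CBP, the paralog to which β-catenin is described to turn when its use of EP300 is blocked. Its levels were 14.05, 14.55 and 14.60 with IQ1 and 14.57, 14.56 and 14.55 in controls at 9 h, and 14.50 with IQ1 and 14.82 in the control at 24 h. The 3 control values at 9 h were nearly identical (SD 0.0094), and of the IQ1 values only that of replicate 1 stood well away from them. The difference was −0.16 in both fits (SE 0.36 with 6 arrays and 0.26 with 5, adjusted p = 0.838 and 0.931), with a 5-array interval from −0.78 to 0.47.

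The change in Ep300 relative to Crebbp was also read within each array, since a ratio of the paralogs is unaffected by a uniform shift of an array. It does not remove deviations of single spots. On control replicate 2 it was −9.47, against −6.64 and −6.76 on control replicates 1 and 3. The log2 signal of Ep300 minus that of Crebbp averaged −6.02 on the IQ1 arrays at 9 h, against −6.70 on the 2 remaining control arrays and −7.63 on all 3. Spots bind with different efficiency, so only the difference between groups has a meaning, and it was 0.68 with 5 arrays and 1.61 with 6. At 24 h it was 0.22. The IQ1 values lay above the control values in each case, and the exact permutation test (two-sided) gave p = 0.1 with 6 arrays and p = 0.1 with 5, the smallest value either design allows. This pair was singled out after the values of both genes were seen. It uses the brightest Ep300 spot, whose groups already did not overlap, so the test adds no separate evidence. On the 2 Ep300 spots annotated to the RefSeq transcript the groups overlapped at 9 h. Their differences were 0.32 and 0.08 with 5 arrays and −0.49 and −0.16 with 6. For the other pairs of paralogs the differences between groups were 0.44 for Bcl9l minus Bcl9 (exact p = 0.3) and 0.05 for Pygo2 minus Pygo1 (exact p = 0.6) with 5 arrays. With 6 arrays they were −0.46 (exact p = 0.9) and −1.52 (exact p = 0.8), with 3 pairs of paralogs compared in all. Adjustment over the 3 pairs can only raise these p-values.

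BCL9 and BCL9L are the adaptors that tie β-catenin to Pygopus proteins. Bcl9 had levels of 11.22, 11.29 and 11.27 with IQ1 and 11.25, 9.19 and 11.16 in controls at 9 h, so that 5 of the 6 arrays lay within a narrow band. Its difference was 0.05 with 5 arrays (SE 0.21, 95% interval −0.45 to 0.55, adjusted p = 0.980) and 0.72 with 6 arrays, the larger value including control replicate 2. Bcl9l had levels of 9.74, 10.51 and 10.33 with IQ1 and 9.62, 10.39 and 9.78 in controls. IQ1 replicate 1 lay among the controls and IQ1 replicates 2 and 3 lay above control replicates 1 and 3. Its difference was 0.50 with 5 arrays (SE 0.30, 95% interval −0.22 to 1.21, adjusted p = 0.725) and 0.26 with 6 arrays. At 24 h Bcl9l was at 10.83 with IQ1 and 10.41 in the control, a difference of 0.42 and the largest of the 10 brightest spots at that time, while Bcl9 was at 10.80 with IQ1 and 10.67 in the control.

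Pygopus proteins read methylated histone H3 and join the complex through BCL9. Pygo1, read from a single spot, had levels of 8.83, 8.70 and 8.93 with IQ1 and 8.88, 3.88 and 8.95 in controls at 9 h. The level of 3.88 on control replicate 2 fell below the lower quartile of 4.34 that all arrays share, and it alone turned the difference of −0.10 with 5 arrays (SE 0.21, adjusted p = 0.956) into one of 1.58 with 6 (SE 1.39, adjusted p = 0.730). Pygo2 had levels of 9.35, 8.99 and 9.40 with IQ1 and 9.34, 8.95 and 9.24 in controls, and differed by −0.05 with 5 arrays and by 0.07 with 6 arrays. At 24 h Pygo1 was at 8.22 with IQ1 and 8.39 in the control. Pygo2 was at 8.86 with IQ1 and 8.64 in the control. For neither gene did the groups separate at 9 h.

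The chromatin regulators of the set are SMARCA4 (BRG1), the ATPase of SWI/SNF complexes, CARM1, an arginine methyltransferase that acts with p160 coactivators, and KAT2B (PCAF), an acetyltransferase. Smarca4 had levels of 9.08, 8.84 and 8.81 with IQ1 and 9.40, 8.68 and 8.84 in controls at 9 h, with a difference of −0.21 in 5 arrays and −0.06 in 6. Carm1 had levels of 10.24, 9.85 and 10.31 with IQ1 and 10.24, 8.09 and 9.92 in controls, with a difference of 0.05 in 5 arrays and 0.72 in 6. In both genes the IQ1 and control values interleaved. Kat2b, read from a single spot, had levels of 6.99, 6.74 and 6.26 with IQ1 and 6.17, 9.38 and 6.56 in controls. The level of 9.38 on control replicate 2 reversed its sign, with 0.30 in 5 arrays (SE 0.30, adjusted p = 0.861) and −0.71 in 6 (SE 0.89, adjusted p = 0.743). At 24 h the differences of Smarca4, Carm1 and Kat2b were −0.18, 0.13 and 0.20.

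The intervals state how large a change these arrays leave room for. In the 5-array fit the 95% intervals of 7 of the 10 genes (Ctnnb1, Crebbp, Bcl9, Pygo1, Pygo2, Smarca4 and Carm1) lay entirely within 1 of 0 on the log2 scale, as did those of 48.8% of all genes and of 70.2% of genes above the median signal. For Ep300, Bcl9l and Kat2b the upper ends were 1.10, 1.21 and 1.02. On these brightest spots the 5-array intervals thus included a rise of 1 on the log2 scale and not a fall of that size. A fall of 1 is not excluded for these genes, since other 5-array intervals included it. These were −1.21 to 1.37 on the third Ep300 spot and −1.24 to 0.84 on the second Bcl9l spot. For Kat2b the 6-array interval, −2.87 to 1.45, included it. With 6 arrays the intervals of 2 genes, Pygo2 and Smarca4, lay within 1 of 0, against 4.1% of all genes and 7.04% of genes above the median signal. These intervals are not adjusted for the number of genes. The median size of the difference, regardless of sign, was 0.16 for the 10 genes in the 5-array fit, 0.25 for all genes and 0.19 for genes above the median signal, which includes all 10 (50% of all genes by definition). The signed median was 0.0024 for the 10 genes and 0.01 for all genes, with 5 of the 10 above 0, as were 51.6% of all genes.

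**Figure D2:**
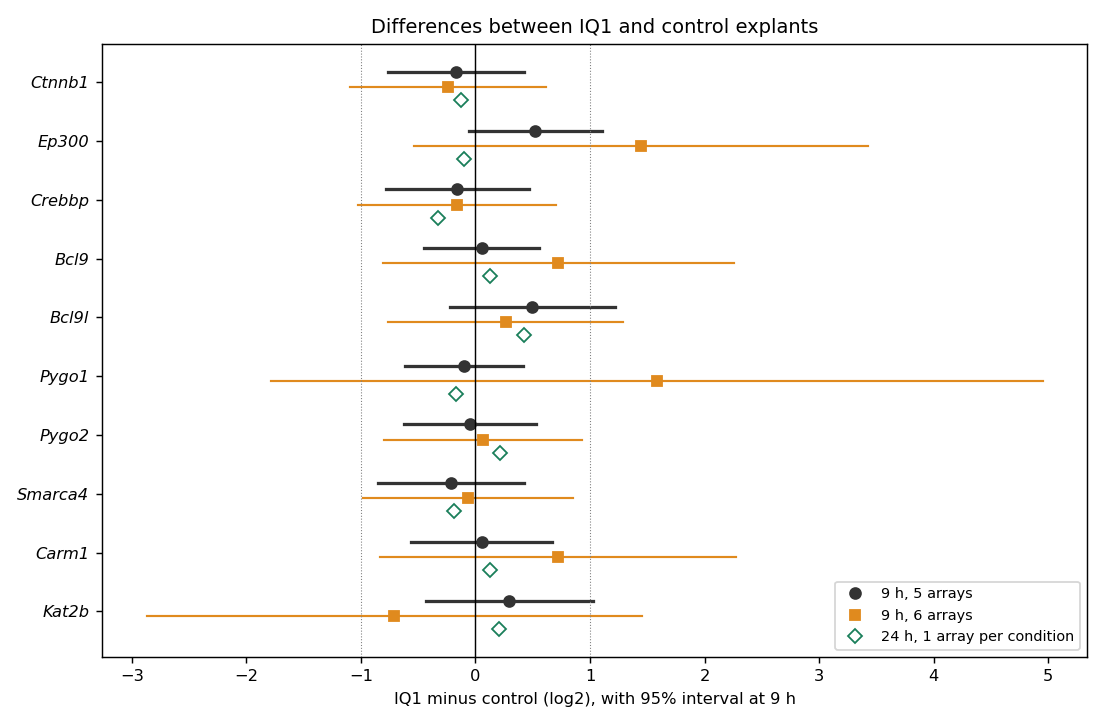
IQ1 minus control on the log2 scale for each gene, with limma's 95% intervals at 9 h for 5 arrays (black circles) and 6 arrays (orange squares) and the single difference at 24 h (green diamonds), where dotted lines mark −1 and 1. Every interval at 9 h includes 0, the 5-array interval of Ep300 comes closest to leaving it out (−0.05 to 1.10), and the widest is that of Pygo1 with 6 arrays (−1.79 to 4.95).

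At 24 h, with 1 array of pooled lungs per condition, no test was made, and the spread of the 9 h arrays was not borrowed because nothing shows that pooled lungs share it. The 10 differences ran from −0.32 (Crebbp) to 0.42 (Bcl9l). None lay past 1 on the log2 scale in either direction, against 10.6% of all genes, and none past 0.5, against 34.4% of all genes. Among genes above the median signal, as all 10 are, the shares were 4.28% and 21.2%. The median size was 0.18 for the 10 genes, 0.34 for all genes and 0.25 for genes above the median signal. Of the 10 genes, 5 were above 0 at 24 h, against 51.4% of all genes.

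Reading every spot changed the picture for single genes. Of the 25 spots, 20 were annotated to a RefSeq transcript and 5 to a cDNA clone. None passed over the 62963 spots tested in either fit, where 0% of all spots passed, and the smallest adjusted p was 0.639. With 5 arrays the differences ran from −0.31 to 0.76, with 14 above 0 and 11 below. An unadjusted p under 0.05 was found for 1 of the 25 spots, against 7.66% of all spots, and with 6 arrays for none, against 1.96%. Of the 8 genes with several spots, all spots had differences of one sign in 3 with 5 arrays at 9 h (Ep300, Pygo2 and Carm1), in 4 with 6 arrays (Ctnnb1, Bcl9, Pygo2 and Carm1) and in 1 at 24 h.

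The spots of Ep300 had one sign with 5 arrays and not with 6. The brightest Ep300 spot, from which the values above were taken, is annotated to a cDNA clone. The 2 spots annotated to the RefSeq transcript of Ep300 had differences of 0.32 (SE 0.27) and 0.08 (SE 0.53) with 5 arrays, and the groups overlapped on both. With 6 arrays they lay at −0.49 and −0.16, opposite to the 1.45 of the brightest spot. The fourth spot, again of a cDNA clone, had a difference of 0.35 at levels of 3.85 to 4.73 in the 5 arrays, near the lower quartile of 4.34, and of 0.79 with 6 arrays. At 24 h the 4 spots gave −0.10, 0.21, −0.72 and −0.14. Control replicate 2 moved in opposite directions within this gene, deviating from the other controls by −2.77 on the brightest spot and by 2.43 on the next.

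Bcl9l was likewise read differently by its spots. The third spot gave 10.13, 9.55 and 10.01 with IQ1 and 9.43, 5.67 and 8.85 in controls at 9 h, with no overlap and a difference of 0.76 in 5 arrays (SE 0.30, unadjusted p = 0.0440, adjusted p = 0.639) and 1.92 in 6 (unadjusted p = 0.104). The second spot gave 8.73, 10.16 and 9.30 with IQ1 and 9.50, 9.83 and 9.68 in controls, with a difference of −0.20 in 5 arrays and −0.28 in 6. All 3 spots were higher with IQ1 at 24 h, by 0.42, 0.51 and 0.32, which made Bcl9l the gene of one sign at that time. On 2 of the 25 spots all IQ1 values lay above the 2 remaining control values and on 1 spot all lay below, against 12.1% and 13.1% of all spots. The single lower spot was the second of Pygo2, with a difference of −0.23 in 5 arrays and 0.16 in 6, where the groups overlapped.

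Ctnnb1 and Crebbp gave differences of 0.31 or less in size on each of their spots with 5 arrays, and of up to 0.80 with 6. The 3 Ctnnb1 spots differed by −0.17, −0.31 and 0.07 with 5 arrays, by −0.24, −0.15 and −0.29 with 6 and by −0.13, −0.15 and 0.12 at 24 h. The 3 Crebbp spots differed by −0.16, 0.08 and −0.08 with 5 arrays, by −0.16, 0.80 and −0.26 with 6 and by −0.32, 0.08 and −0.09 at 24 h. Smarca4 had the widest disagreement at 24 h, with −0.18, 0.55 and 0.99 on its 3 spots, although the same spots lay at −0.21, −0.10 and 0.03 with 5 arrays at 9 h and at −0.06, −0.20 and 0.56 with 6. Of the 25 spots, 5 lay past 0.5 at 24 h, against 35.5% of all spots.

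**Figure D3:**
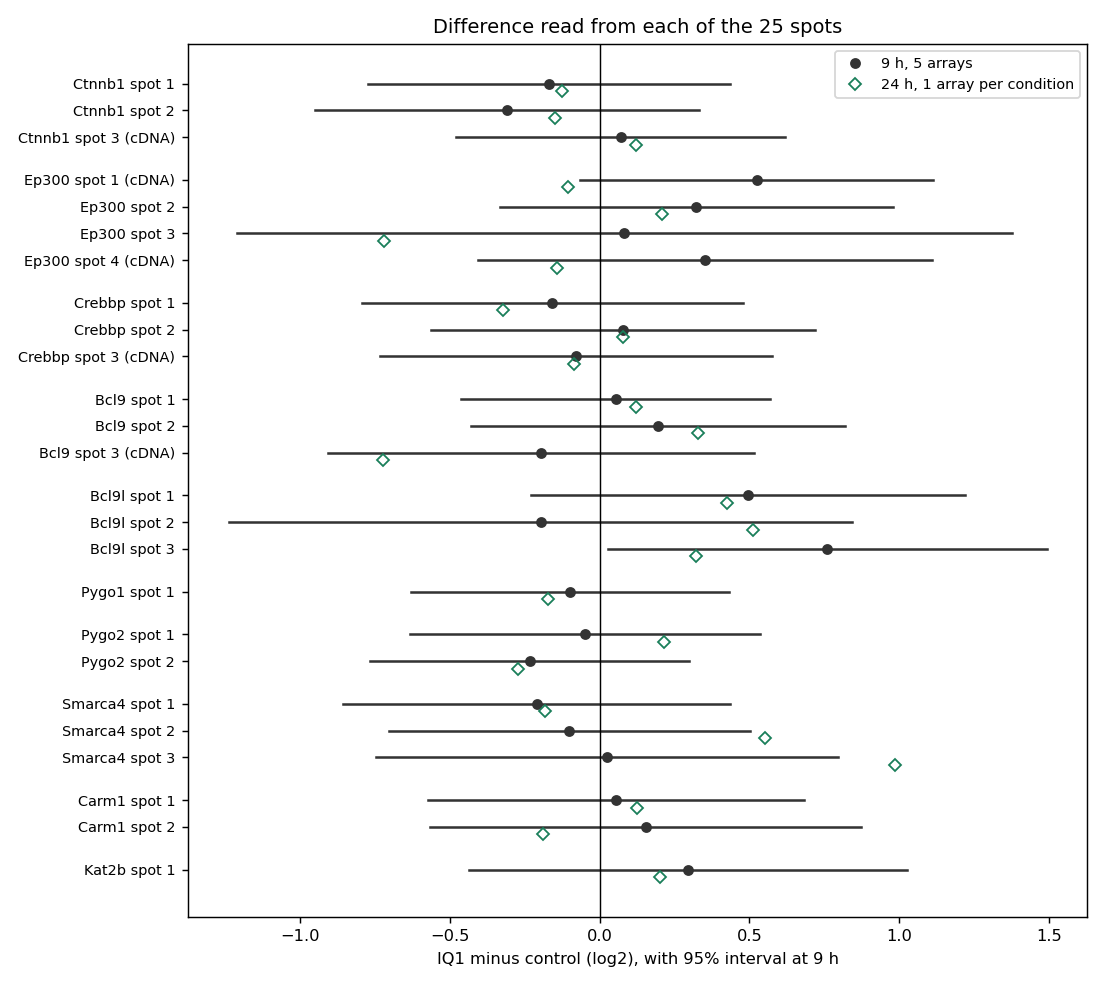
IQ1 minus control on the log2 scale for each of the 25 spots, ordered by brightness within a gene, with limma's 95% interval for the 5 arrays at 9 h (black) and the single difference at 24 h (green diamonds), and with spots annotated to a cDNA clone marked. The third Bcl9l spot, at 0.76, is the one whose interval leaves out 0, and the third Smarca4 spot at 24 h, at 0.99, is the farthest diamond.

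The 24 h arrays were also set against the 9 h arrays, a comparison in which culture time cannot be told apart from the separate experiment and the pooling of lungs at 24 h, and for which no test was made. Both 24 h arrays lay below all 5 arrays at 9 h for 5 of the 10 genes, Bcl9, Pygo1, Pygo2, Smarca4 and Carm1, against 12.3% of all genes. For none did both lie above, against 12.7% of all genes with 5 arrays and 9.46% with 6. With control replicate 2 included the same was true of Pygo2 and Smarca4, against 5.15% of all genes. Smarca4 was at 8.21 (IQ1) and 8.39 (control) at 24 h, against 8.81 to 9.08 (IQ1) and 8.84 to 9.40 (the other 2 controls) at 9 h. Without control replicate 2, the level at 24 h minus the mean at 9 h was −0.70 with IQ1 and −0.73 in controls for Smarca4, −0.46 and −0.53 for Bcl9, −0.61 and −0.53 for Pygo1, −0.39 and −0.65 for Pygo2 and −0.43 and −0.50 for Carm1. With all 3 controls in the 9 h mean, the control values turned to 0.14 for Bcl9, 1.15 for Pygo1 and 0.17 for Carm1, and stayed below 0 for Smarca4 (−0.59) and Pygo2 (−0.54).

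Bcl9l lay the other way, by 0.64 with IQ1 and 0.71 in controls (0.48 with all 3 controls). Ctnnb1 lay closest to 0, with −0.0042 with IQ1 and −0.05 in controls. Without control replicate 2, Ep300 was the gene whose time differences had opposite signs, −0.40 with IQ1 and 0.23 in controls. With all 3 controls this was so of Ep300 (1.15 in controls), Bcl9, Pygo1 and Carm1. On the level of spots the lower level at 24 h was partial, since 7 of the 25 spots had both 24 h arrays below all 5 arrays at 9 h, against 11.8% of all spots. These were 2 of the 3 Bcl9 spots, the third Ctnnb1 spot, the single Pygo1 spot and 1 spot each of Pygo2, Smarca4 and Carm1.

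**Figure D4:**
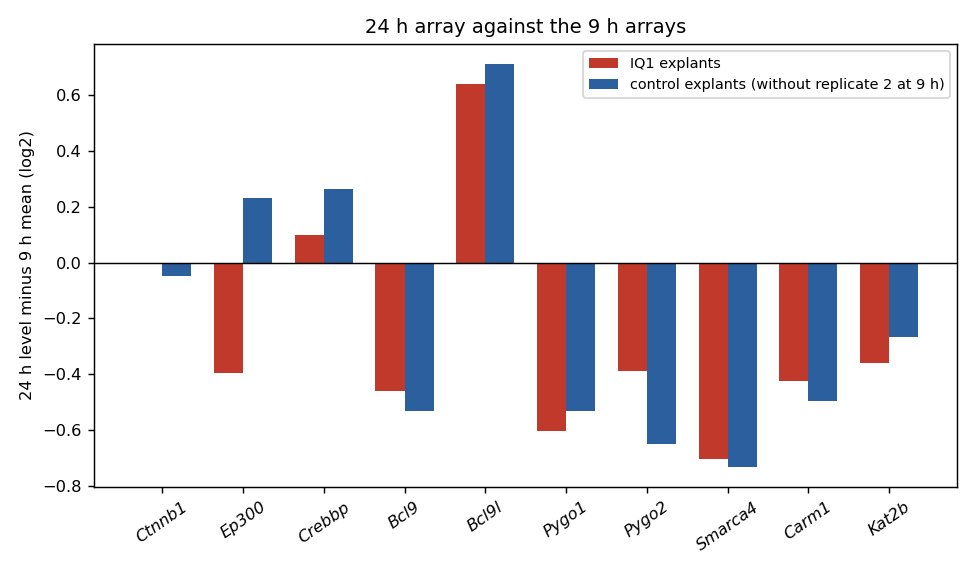
Level at 24 h minus the mean level at 9 h on the log2 scale for each gene, in IQ1 explants (red) and in control explants without control replicate 2 (blue); each bar rests on 1 array at 24 h and has no error. The bars of one gene run the same way in 9 of the 10 genes (6 of the 10 if control replicate 2 is included), Bcl9l is the gene most above 0 and Smarca4 the gene most below it.

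The genes whose levels followed those of β-catenin and its acetyltransferases most closely were sought over the 7 arrays without control replicate 2, among 12152 genes above the median signal. Ctnnb1 was nearest to Dgkd (Pearson r = 0.973), Stk24 (r = 0.952) and Ywhaz (r = 0.948). Ep300 was nearest to Polr3e (r = 0.968), Cers4 (r = 0.954) and Pot1b (r = 0.952), and Crebbp to Mcam (r = 0.986), Pheta2 (r = 0.975) and Sfpq (r = 0.973). These r values are the highest of 12152 over 7 arrays and are given as a description.

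Partners of the 10 proteins were examined through 6 further lists, and no member of these lists met the adjusted threshold with 5 or 6 arrays. The medians given are those of the 5-array fit. With 6 arrays the 6 medians ran from 0.02 to 0.65 and were all above 0, the median of all genes being 0.16 there, so that the medians below 0 turned their sign with control replicate 2. The 4 TCF/LEF genes, which bring β-catenin to DNA, all had 5-array differences below 0, with a median of −0.47. Of all genes, 51.6% had a 5-array difference above 0. Lef1 had levels of 7.01, 8.05 and 7.70 with IQ1 and 8.77, 5.31 and 8.24 in controls at 9 h. Its difference was −0.92 with 5 arrays (SE 0.37, adjusted p = 0.589) and 0.14 with all 6 (adjusted p = 0.948). At 24 h Lef1 was at 5.54 with IQ1 and 8.79 in the control, a difference of −3.25.

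The 29 other coactivators and chromatin partners had a 5-array median of −0.06, with 12 above 0 and 17 below. At an unadjusted p under 0.05 there was 1, against 8.38% of all genes. That one was the Mediator subunit Med12, at 9.45, 9.53 and 9.73 with IQ1 and 8.97, 8.79 and 8.97 in controls. All its IQ1 values lay above all control values, as in 8.33% of all genes with 6 arrays and 13.1% with 5. The difference was 0.60 in 5 arrays (SE 0.22, adjusted p = 0.547) and 0.55 at 24 h. Among 11 further partners of EP300 and CBP the median was −0.03, and the Notch coactivator Maml3 had the smallest p with a difference of −1.05 (adjusted p = 0.510), or 0.19 with 6 arrays.

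Genes that restrain β-catenin, 20 members of the destruction complex and nuclear antagonists, had a median of −0.18. At an unadjusted p under 0.05, 1 was higher and 2 were lower, against 4.24% and 4.14% of all genes. Tle5, a short Groucho family member that lacks the repressor domains, differed by 0.74 (adjusted p = 0.491), and the corepressors Ctbp2 and Tle4 by −0.57 each (adjusted p = 0.555 and 0.564) with 5 arrays. With 6 arrays these differences were 1.63 for Tle5, 0.39 for Ctbp2 and −0.40 for Tle4. The 7 adhesion partners had a median of −0.29, none with an unadjusted p under 0.05. Cdh1 (E-cadherin), at 4.43, 4.07 and 5.83 with IQ1 and 6.08, 8.53 and 5.58 in controls, differed by −1.05 (adjusted p = 0.678) with 5 arrays and by −1.95 with 6. Its signal was low, below the array median of 6.29 on every array but control replicate 2, with 4.07 under the lower quartile of 4.34. Cdh2 (N-cadherin) differed by −0.31 (adjusted p = 0.777) with 5 arrays. At 24 h the differences of Cdh1 and Cdh2 were above 0, at 0.20 and 0.21. 

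The 11 canonical WNT targets had a median of 0.19 with 5 arrays, against 0.01 for all genes, and −0.40 at 24 h, when the median of all genes was 0.02. At an unadjusted p under 0.05 there were 2 higher and 1 lower with 5 arrays, against 4.24% and 4.14% of all genes. Myc had levels of 9.11, 8.84 and 8.81 with IQ1 and 10.20, 10.53 and 9.75 in controls. All its IQ1 values lay below all control values, as in 5.25% of all genes with 6 arrays and 13.1% with 5. The Myc difference was −1.05 in 5 arrays (SE 0.25, adjusted p = 0.356). The ubiquitin ligase gene Znrf3 differed by 0.78 (adjusted p = 0.417) and the receptor gene Tnfrsf19 by 0.57 (adjusted p = 0.540) with 5 arrays, and by 1.76 and 0.86 with 6. At 24 h the differences of Myc, Znrf3 and Tnfrsf19 were −0.40, 0.39 and 0.16.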

How the data were processed

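Total RNA of 8 explant samples was amplified as cDNA (Ovation PicoSL WTA) and hybridized to Agilent mouse arrays. The deposited values are log2 intensities that the authors made in limma by NormExp background correction and quantile normalization. They ran from 2.49 to 16.0, all arrays having a median of 6.29. Quantile normalization hides differences in total signal, and background readings of single spots were not used, so the number of arrays limits precision. A total of 43941 spots was named through the GEO platform annotation, updated by accession (33704 spots), symbol (9767) or synonym (463) with a RefSeq table (GRCm38.p6), with 7 kept as listed. Spots with missing values (8 named) were left out. The brightest spot by mean over 8 arrays stood for a gene, as in the study's methods. For the 9 h groups, linear models with moderated two-sided tests were fitted (limma 3.58.1, R 4.3.3) and p-values adjusted by Benjamini-Hochberg across the 24304 genes (threshold 0.05). The procedure was tested on simulated data with normal noise and large changes. These held no array like control replicate 2 and no small changes. Spots were fitted the same way over all spots. Other settings tried were leaving out each array, a replicate block, leaving out dim genes, averaging spots, centering arrays, an intensity trend with robust prior, and array weights. Named were all 10 genes, per partner list up to 4 genes of smallest p in the 5-array fit with an unadjusted p under 0.05 (or 2 genes where there was none), and 3 genes of most similar pattern for Ctnnb1, Ep300 and Crebbp. Genes and lists were chosen with earlier results of these data known. Probe and protein sequences were not used here.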

Additional observations from a re-analysis of the deposited data

Results flagged for a closer look

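On its brightest spot, annotated to a cDNA clone, Ep300 was higher in all 3 IQ1 arrays than in all 3 control arrays at 9 h (5-array difference 0.52), as were 8.33% of all genes (13.1% with 5 arrays), and lower in the IQ1 array than in the control array at 24 h (−0.10). On the 2 spots annotated to the RefSeq transcript the groups overlapped at 9 h, with differences of 0.32 and 0.08 with 5 arrays and −0.49 and −0.16 with 6. The change of sign between the times was not tested, since 24 h has 1 array per condition.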

How the results depend on the processing

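No setting brought any of the 10 genes past the adjusted threshold, and leaving out single arrays gave 0 called among the 10 in every case. Over all genes, array weights gave 233 calls with 6 arrays, against 0 in the plain fit. With 5 arrays, against 3, array weights gave 34, leaving out dim genes 31, averaging spots 9, a trend with a robust prior 139 and the replicate block 0. Leaving out single arrays gave 0 to 3 calls with 6 arrays, the 3 arising without control replicate 2, and 0 with 5 arrays; some of these fits left 1 control array, assumed to vary like the IQ1 arrays. At 24 h, 520 bright genes lay past 1, against 2580 of all genes, a share of 4.28% against 10.6%.

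The median of the 10 genes ranged from 0.0024 to 0.25 when single arrays were left out of the 6 and from −0.08 to 0.09 when left out of the 5. Centering on bright genes gave −0.22 with 6 arrays, the median of all genes being −0.23 there and 0.16 as deposited. At 24 h, averaging spots turned the signs of Smarca4 (0.45), Bcl9 (−0.09), Pygo2 (−0.03) and Carm1 (−0.03). The signs that turned at 9 h were of genes that missed the threshold. With 6 arrays, array weights gave Pygo1 −0.022, Pygo2 −0.016 and Kat2b 0.15, centering gave Bcl9l −0.12 and Pygo2 −0.32, and averaging spots gave Crebbp 0.13 and Smarca4 0.10. With 5 arrays, array weights gave Pygo2 0.0047 and the replicate block 0.080. Leaving out single arrays of the 6 gave −0.26 to 0.016 for Crebbp, −0.10 to 2.44 for Pygo1, −0.048 to 0.20 for Pygo2, −0.21 to 0.15 for Smarca4 and −1.31 to 0.30 for Kat2b. Of the 5 it gave −0.26 to 0.018 for Crebbp, −0.13 to 0.080 for Pygo2, −0.49 to 0.072 for Smarca4 and −0.11 to 0.22 for Carm1. With all 3 controls in the 9 h mean, a setting chosen after seeing the data, the 24 h minus 9 h value in controls turned to 0.14 for Bcl9, 1.15 for Pygo1 and 0.17 for Carm1. The cause was not tested. Whether replicate numbers pair the samples could not be told. Deviations of same-numbered IQ1 and control arrays from their group means correlated at 0.0038, −0.0036 and 0.0153. The control mean included control replicate 2, which lay far from the other controls, so such values can arise with or without pairing. The replicate block changed no call of the 10 genes.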
